A study of Mus musculus with 3 samples.

Results

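The sites described here are the poly(A) sites in terminal exons of F121-9 mouse embryonic stem (ES) cells that follow the hexamer ATTAAA and not the canonical hexamer AATAAA. A poly(A) site is the position at which a transcript is cleaved and receives its poly(A) tail. Members were taken by rule from the deposited site lists: autosomal sites with the region code TE whose deposited signal column names ATTAAA at an offset of -40 to -10 from the site, and no AATAAA there. The offset is the start of the hexamer, and -1 is the site's own base. The rule found 5643 sites, which were 10.01% of 56377 autosomal terminal exon sites and came from 178115 listed sites in all. No read value entered the rule.

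F121-9 is a mouse ES cell line of hybrid origin, with CAST and 129 as the parental strains. There was 1 group of 3 libraries, replicates 1, 2 and 3, each from cells at passage 14 and from 500 ng of RNA, with no treatment named and no contrast between conditions. The libraries were made by PAS-seq with the QuantSeq protocol, in which a read marks the 3′ end of a polyadenylated RNA. Separate cultures are not named, so error values and p-values cover only the spread of these libraries, part of which may be technical.

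The cleavage machinery reads several elements of the nascent transcript. The cleavage and polyadenylation specificity factor (CPSF) binds the hexamer through its subunits Cpsf4 and Wdr33, cleavage factor I binds UGUA upstream of it, and the cleavage stimulation factor binds U-rich or GU-rich sequence downstream of the cut. AAUAAA in the RNA is the canonical signal, and AUUAAA is known as its commonest variant and as a weaker signal in processing assays. Genes often carry several sites in 1 terminal exon, and use of the proximal (upstream) site gives a shorter 3′ UTR than use of the distal site.

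The sequences below show the ending of the transcript at highly read members and at pairs of sites whose use is compared further on, because the hexamer and its distance to the cut define the class. They were read from the RefSeq GRCm38 reference, whose coordinates are those of mm10, and not from the reads, so differences between the CAST and 129 alleles were not analysed. Each is written 5′ to 3′ on the strand of the RNA with T for U. Capitals mark the hexamer, and the last base is the site, except for the AATAAA site of Psmb1, where the shown stretch stops 4 bases before it.
Chchd10, chr10:75937717-75937746, plus strand: tattcaATTAAAaagtttactttagaccac
Rpl27a, chr7:109521743-109521772, plus strand: ggttaATTAAAtgctaacattttccatgtg
Rpl6, chr5:121208938-121208967, plus strand: gttaacctaATTAAAcagcttcataggttc
Sod1, chr16:90226305-90226334, plus strand: ccATTAAActgtaatctgaagagttgtaac
Rpl38, chr11:114672302-114672331, plus strand: gcgtgtgactATTAAAaaccctgaaaagtg
Cdh1, chr8:106670217-106670246, plus strand: gaattttATTAAAgagttttgttaaactgt
Klf2, proximal, chr8:72321320-72321349, plus strand: tttttaATTAAAgttttggatctttggagg
Klf2, distal, chr8:72321625-72321654, plus strand: tagaaaagaaaATTAAAaaccttttcctgg
Tdh, proximal, chr14:63492459-63492488, minus strand: ttgtatttaATTAAAttcaatttaagtatc
Tdh, distal, chr14:63492349-63492378, minus strand: ggaatactaATTAAAaaaacgatcgcttgc
Ywhae, ATTAAA site, chr11:75765564-75765593, plus strand: ATTAAAaatgccaaatatatcatgcctcca
Ywhae, AATAAA site, chr11:75765597-75765626, plus strand: tttatacttctaaAATAAAatctctagtcc
Psmb1, ATTAAA site, chr17:15475960-15475989, minus strand: aagtttgttttATTAAAaagaatgtaaagt
Psmb1, AATAAA site, chr17:15475708-15475737, minus strand: aaAATAAAaccactaatataatttcttttt
Rpl22, ATTAAA site, chr4:152334038-152334067, plus strand: cactttttgtATTAAAgtggctgacacatg
Rpl22, AATAAA site, chr4:152332461-152332490, plus strand: AATAAAatttaggaacaaaaccggtggttt
Rplp0, ATTAAA site, chr5:115563606-115563635, plus strand: aaaATTAAAgctcctagtgtttttgtgggc
Rplp0, AATAAA site, chr5:115563482-115563511, plus strand: gaaagatggaAATAAAggcttacttctctt

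Values are in RPM, the deposited reads scaled to the size of the library. They could be turned back into whole reads, and autosomal listed sites held 9326090, 12500338 and 13040404 reads in replicates 1, 2 and 3, of which 93.7%, 93.9% and 93.4% lay at terminal exon sites. Replicate 3 had no reads on chromosomes X and Y and the mitochondrial genome, and its deposited autosomal values ran higher: over the 1277 members with a mean of at least 10 RPM, the median log2 ratio of replicate 3 to replicate 1 was 0.16, and 0.02 after scaling to autosomal reads. Of the 8 ES cell markers examined, all had at least 10 RPM. They ran from Zfp42 with 20.8 ± 3.35 RPM to Nanog with 723 ± 133 RPM (mean ± SD, n = 3 here and below). Sox2 had 611 ± 89.3 RPM, Pou5f1 102 ± 16.1 RPM and Klf4 78.3 ± 8.94 RPM. Of 8 fibroblast feeder markers, Thy1 (84.4 ± 37.1 RPM) and Vim (71.6 ± 22.4 RPM) reached 10 RPM. Postn and Dcn had no listed read. The feeder markers summed to 128 to 223 RPM and the ES cell markers to 2612 to 3056 RPM per library. Of lineage markers, 0 of 5 for endoderm, 1 of 4 for mesoderm and 1 of 4 for neuroectoderm reached 10 RPM. For trophoblast 2 of 5 did, Tfap2c with 188 ± 39.6 RPM and Krt7 with 10.3 ± 1.09 RPM. Reads may not be independent molecules, as molecular identifiers are not mentioned in the labels, and how reads from near-identical gene copies were placed is not given, so ribosomal protein genes are uncertain.

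The first question was how much of the cells' polyadenylation passed through these sites. ATTAAA sites took a small but steady share. They held 1170182 reads in replicate 1, 1587467 in replicate 2 and 1675736 in replicate 3. That was 13.6% ± 0.184 of terminal exon reads (SD, n = 3), and 12.7% ± 0.151 of all autosomal reads. Sites with AATAAA, 27.4% of terminal exon sites, held 63.3% ± 0.708 of these reads. Sites with another of the deposited variant hexamers (21.8% of sites) held 10.9% ± 0.177, and sites with no listed hexamer (40.8% of sites) held 12.2% ± 0.862. A single site without a listed hexamer, in Gm42418, took 7.42% ± 0.828 of terminal exon reads.

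The hexamer was more frequent in its place than elsewhere nearby. With the rule's 31 start positions moved to begin 101 bases after the site, ATTAAA without AATAAA was found at 1193 terminal exon sites, 2.12% of them, and these held 1.08% ± 0.0351 of reads. The same search of the reference upstream of the sites returned the 5643 members and no other site. All 56538 deposited hexamers of terminal exon sites were found in the reference at their stated place.

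**Figure D1:**
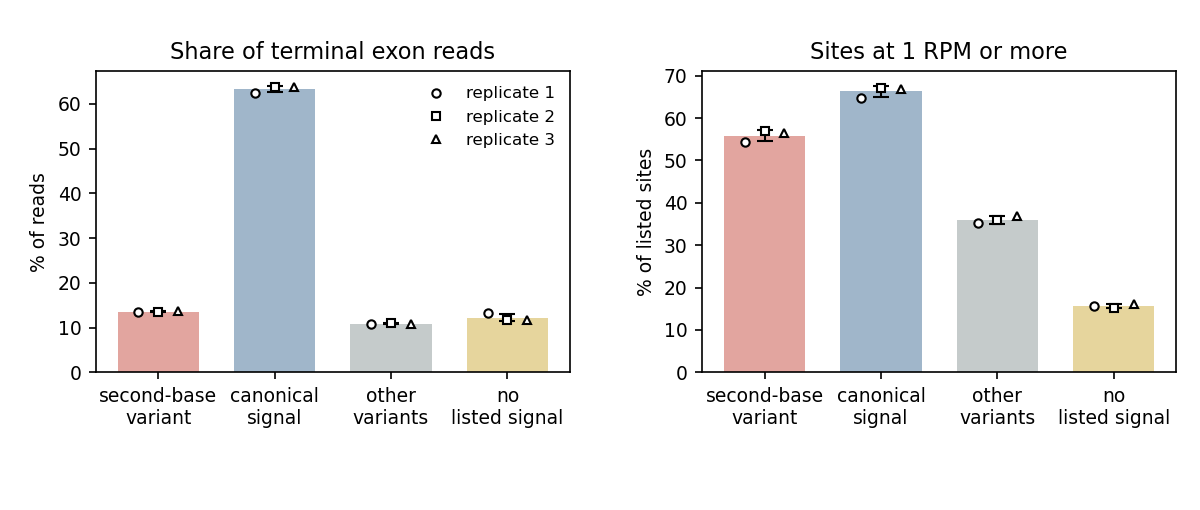
Left, percent of terminal exon reads by signal class. Right, percent of the listed sites of each class with at least 1 RPM. Bars are means over the 3 libraries, error bars are the SD, and points are the libraries. The class with ATTAAA and no AATAAA (labelled second-base variant) held 13.6% of reads, and 55.9% of its sites reached 1 RPM, below the class with AATAAA (canonical signal) and above the other classes.

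Site by site, the share of members in use lay below that of AATAAA sites and above those of the remaining classes in every library. Of the members, 55.9% ± 1.33 had at least 1 RPM in a library, against 66.3% ± 1.35 of AATAAA sites, 35.98% ± 0.897 of sites with other variants and 15.7% ± 0.474 of sites without a listed hexamer. The difference to AATAAA sites was -10.4, -10.4 and -10.5 percentage points in replicates 1, 2 and 3. The differences to the other classes were 19.9 ± 0.938 and 40.2 ± 1.495 points. Each of the 3 differences had its sign in 3 of 3 libraries, and each had an exact two-sided sign-flip permutation p of 0.25, the smallest that 3 libraries allow, and 0.25 after Benjamini-Hochberg adjustment.

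Most members were weak, and few carried most of the reads. The median member had a mean of 1.47 RPM (quartiles 0.337 and 8.23), against 3.24 RPM for AATAAA sites, 0.471 RPM for other variants and 0.131 RPM for sites without a listed hexamer. A mean of 1 RPM was reached by 3188 members, 10 RPM by 1277, 100 RPM by 236 and 500 RPM by 27. The 20 most-read members held 23.2% ± 1.81 of member reads, the top 100 held 46.4% ± 1.12 and the top 500 held 78.1% ± 0.400. For AATAAA sites the same numbers of sites held 14.6% ± 0.241, 31.3% ± 0.316 and 55.3% ± 0.505, in a class with more sites. Reads appeared in all 3 libraries at 3101 members (55.0%), in 2 libraries at 995 (17.6%) and in 1 library at 1547 (27.4%). The first group held 98.9% ± 0.120 of member reads and the last 0.371% ± 0.0792.

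Among members with a mean of 10 to 100 RPM (n = 1041) the median coefficient of variation over libraries was 22.1%, and among 4216 AATAAA sites of that level it was 21.1%. The Pearson correlation of log2 RPM between libraries over the 1277 members with at least 10 RPM was 0.932 (replicates 1 and 2), 0.927 (1 and 3) or 0.930 (2 and 3). These points are sites that share a library, not replicates. In the deposited values 625 of these members were highest in replicate 3, 360 in replicate 2 and 292 in replicate 1. After scaling to autosomal reads the numbers were 451, 452 and 374.

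Position of the hexamer followed the same course in the variant and the canonical class. In both, the median offset was -22 with quartiles of -25 and -20. Most members lay in the middle of the allowed range: 2328 members (41.3%) had the hexamer at -25 to -21 and held 47.9% ± 1.34 of member reads, and 1770 (31.4%) had it at -20 to -16 and held 26.9% ± 0.826. Farther upstream, the 559 members at -40 to -31 were used about as much per site, with a median of 1.49 RPM against 1.60 RPM at -25 to -21. Close to the cut the picture changed. The 159 members at -15 to -10 had a median of 0.210 RPM, 28.3% ± 1.09 of them reached 1 RPM, and together they held 0.413% ± 0.0160 of member reads. The 310 AATAAA sites of this range were low as well, with a median of 0.288 RPM and 29.2% ± 0.493 at 1 RPM.

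The edges of the rule fell on both kinds of ground. Counted here are only sites at which ATTAAA is listed once. Just inside the far edge, at -40 and -39, lay 47 such members with a median of 1.15 RPM. Just outside, at -42 and -41, lay 61 sites with a median of 0.908 RPM. The most-read of these, in Atp5g3, had a mean of 1099 RPM. The rule leaves it out, although members of the 20 most-read such as Cdh1 (946 RPM) had less. At the near edge, 42 members at -11 and -10 had a median of 0.113 RPM, and 42 sites at -9 and -8 had a median of 0.0637 RPM.

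**Figure D2:**
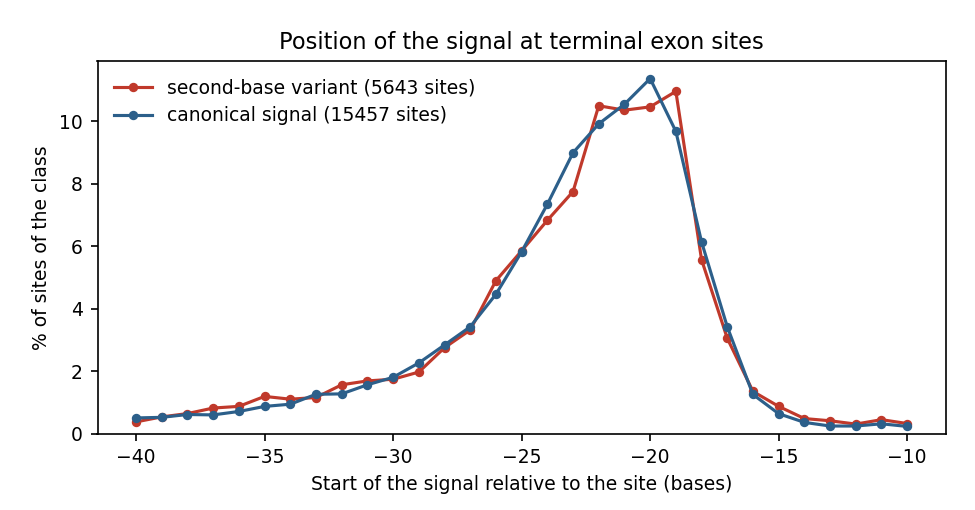
Percent of the sites of each class (vertical axis) by the start of the hexamer relative to the site in bases (horizontal axis), for 5643 ATTAAA sites and 15457 AATAAA sites. Both lines rise to a maximum near 20 bases before the site and fall to near 0 on the side of the cut.

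ATTAAA stood as the single listed hexamer of the window at 4192 members (74.3%), which held 76.1% ± 0.562 of member reads. Another listed variant was also present at 1374 members (24.3%), most often AAGAAA (234 members), AATATA (174) and AATAAT (166). The median was 1.77 RPM with another variant and 1.40 RPM without. Repeats of ATTAAA were found at 104 members (1.84%), and AATAAA was listed outside the window at 123 (2.18%), Ywhae among them.

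The base before the hexamer had a different make-up in the 2 classes. Over all members it was A at 31.4% and T at 30.02%, and over all AATAAA sites A at 42.2% and T at 23.95%. Over members with at least 10 RPM, the base before ATTAAA was T at 34.1% and A at 30.9%, whereas before AATAAA (5212 sites of that level) it was A at 42.2% and T at 23.9%. The base after the hexamer was A at 35.9% of members and at 35.3% of AATAAA sites, and G at 27.8% and 25.4%. These shares are descriptions of the reference sequence with no test.

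Other elements around the cut were searched as short words, again in sites with at least 10 RPM (1277 members, 5212 AATAAA sites and 8236 terminal exon sites in all). TGTA, the letters of the cleavage factor I element, lay in the 60 bases from 99 to 40 before the site at 40.96% of members, 40.3% of AATAAA sites and 39.7% of all sites. On the opposite strand it lay at 21.8%, 22.3% and 22.0%. TGTGT lay in the 40 bases after the site at 22.5%, 20.5% and 20.8%, against 2.90%, 2.57% and 2.57% on the opposite strand. TTTT lay there at 43.6%, 39.2% and 41.4%, against 13.9%, 14.8% and 15.7% on the opposite strand. In members these 40 bases held 37.9% T and 21.8% A, so the strands differ in base composition. On the same strand, in 40 bases beginning 101 bases after the site, TGTGT lay at 8.07%, 8.71% and 8.51%. TTTT lay in that window at 22.5%, 20.2% and 20.7%. TGTGT and TTTT cannot overlap by more than 1 base. The members thus had shares close to those of AATAAA sites for each word searched, with the largest gap at TTTT. The base after the site was A at 76.7% of members and 76.6% of AATAAA sites, and C followed by A spanned the site at 27.96% and 29.01%. The site's own base was A at only 1.64% and 1.75%. Whether the share of A after the site comes from how sites were placed was not tested. A match is a description of letters and not a bound site.

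Sites followed by A-rich sequence can come from priming inside a transcript. Such sequence, with 12 or more A in the next 20 bases or 6 A in a row there, followed 112 members (1.98%), which held 0.134% ± 0.0171 of member reads. It followed 1.48% of AATAAA sites, 6.22% of sites with other variants and 12.4% of sites without a listed hexamer.

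In the GENCODE M21 annotation, 4686 members (83.0%, with 88.9% ± 0.208 of member reads) lay in a 3′ UTR. A further 574 (10.2%) lay in a noncoding exon, 66 in coding sequence and 3 in a 5′ UTR. The 314 members outside annotated exons (5.56%) held 8.90% ± 0.161 of reads. A smaller share of members than of AATAAA sites lay at annotated transcript ends. Within 24 bases of such an end were 41.6% of members with 65.8% ± 0.965 of their reads, against 59.8% of AATAAA sites with 75.5% ± 0.167 of theirs. At 10 RPM or more the shares of sites were 64.5% (824 of 1277) and 75.2%. These shares carry no test, because sites are not replicates.

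By gene, the members fell into 4462 genes, of which 4177 were protein-coding, and 3 members could not be assigned. A single member was present in 3554 genes, 2 in 712 and 3 or more in 196. Syncrip, which encodes an RNA-binding protein, and Spred1, which encodes an inhibitor of Ras signalling, had the highest number, 6 each. In Syncrip the 6 were among 29 terminal exon sites and held 9.96% ± 3.00 of the gene's terminal exon reads. In Spred1 they were among 12 sites and held 91.4% ± 7.63. An AATAAA site was listed as well in 2599 of the genes, and none in 1863.

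How far a gene depended on its ATTAAA sites varied from almost nothing to everything. Of the genes, 3401 had a mean of at least 50 reads in terminal exons. The median share of their reads at members was 27.5%, 25.8% and 28.1% in replicates 1, 2 and 3. The share was under 10% in 1301 genes, 10 to 50% in 698, 50 to 90% in 551 and at least 90% in 851. Of these 851, 673 had no listed AATAAA site and 178 had one. A member was the only listed terminal exon site in 196 genes. A member was the most-read terminal exon site in 1480 genes, or 15.6% of the 9462 genes with at least 50 reads. An AATAAA site led in 6187 of the 9462 (65.4%), a site with another variant in 1341 (14.2%) and a site with no listed hexamer in 454 (4.80%).

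In 17 of the 20 most-read members the ATTAAA site took over 90% of the terminal exon reads of its gene. Of the 20 sites, 18 lay in a 3′ UTR. Chchd10 encodes a protein of the mitochondrial intermembrane space. Its site had 2244, 2527 and 3230 RPM in replicates 1, 2 and 3 and was highest in replicate 3. The site was at 100% of the gene's terminal exon reads in replicates 1 and 2. Sod1, the cytosolic superoxide dismutase, was even, with 1589, 1513 and 1619 RPM at a site 5 bases past the annotated exon end. Cdh1 encodes E-cadherin, the adhesion molecule that holds ES cell colonies together. Its site had 905, 817 and 1117 RPM and held 99.1% ± 0.350 of the gene's terminal exon reads.

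The large ribosomal subunit gene Rpl27a had 2062, 1952 and 2373 RPM at its ATTAAA site, and an AATAAA site 589 bases downstream had a mean of 40.7 ± 6.52 RPM, or 1.87% of the gene's terminal exon reads. Rpl6 had 1787, 1984 and 1926 RPM, the libraries lying close together. Rpl38 had 1524, 1518 and 1622 RPM at its only listed terminal exon site. Eif2s2 encodes the beta subunit of the factor that brings the initiator tRNA to the ribosome. Its site, with the hexamer far upstream at -34, had 1178, 1130 and 1501 RPM and 90.8% ± 0.361 of the gene's reads, and an AATAAA site 1005 bases downstream held 4.25%. The glycyl-tRNA synthetase gene Gars had a mean of 761 ± 78.0 RPM, and its site held 99.4% ± 0.314 of its reads. The elongation factor gene Eef1g had 744 ± 91.5 RPM and 99.7% ± 0.132.

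The remaining members of the 20 ranged from 616 to 847 RPM in the mean. They included the chaperonin subunit genes Cct3 (671 ± 28.2 RPM) and Cct4 (654 ± 70.8 RPM), Polr2e, a subunit shared by the RNA polymerases (736 ± 76.0 RPM), and Snhg3, a noncoding host transcript of a small nucleolar RNA (655 ± 28.6 RPM). Npc2, a lysosomal cholesterol carrier, had 847 ± 62.4 RPM, and Calr, a chaperone of the endoplasmic reticulum, had 616 ± 31.5 RPM. Gsta4, a glutathione transferase, had 647 ± 105 RPM. In 3 genes of the 20 the site shared the reads of the exon more evenly with others. Rad23b, a ubiquitin receptor of DNA repair, had 571, 587 and 695 RPM at its ATTAAA site, 59.8% ± 3.05 of its reads, and a site with another variant hexamer 445 bases upstream held 34.6%. Ywhae, a phosphoprotein-binding adaptor, had 614, 676 and 841 RPM and 77.1% ± 1.74. Psat1, an enzyme of serine synthesis, had 664, 614 and 572 RPM and 81.1% ± 0.672, with a site of another variant 346 bases upstream at 18.5%.

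**Figure D3:**
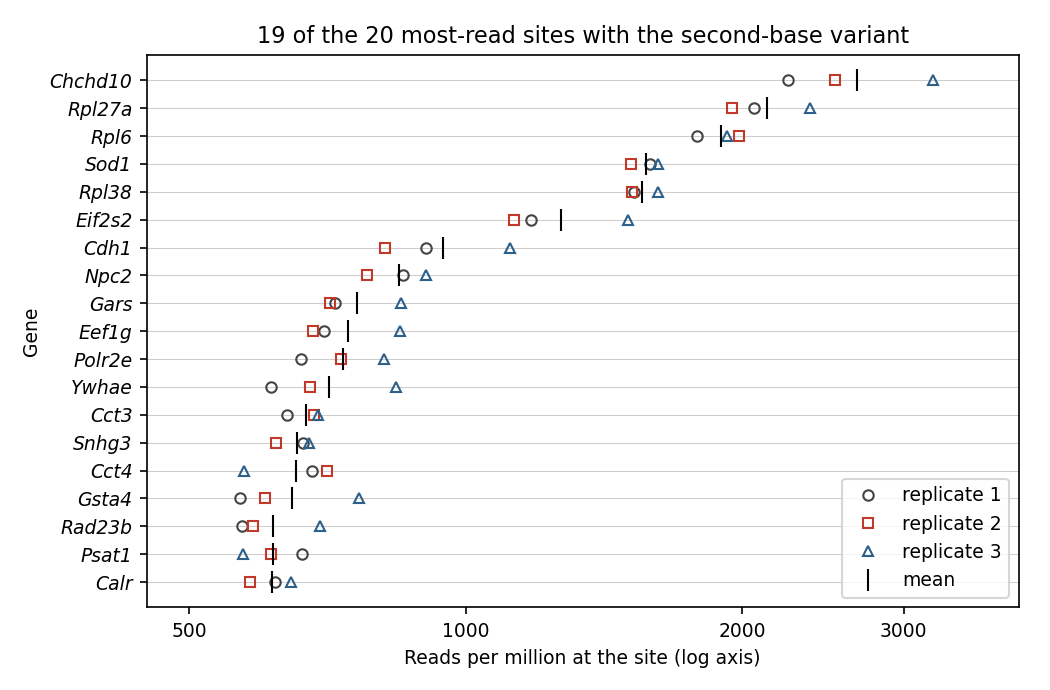
RPM (horizontal, log axis) at 19 of the 20 ATTAAA sites with the highest mean, 1 line per gene. Symbols are the 3 libraries and the bar is their mean. Of the sites shown, Chchd10 lies highest, from 2244 to 3230 RPM, and Sod1 and Rpl38 have their 3 libraries close together.

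At the other end, the 5 most variable members with at least 30 RPM were Lemd3, Cnpy4, Ccdc58, Plxna1 and Kifc3. Lemd3, an inner nuclear membrane protein, had 16.3, 49.2 and 25.2 RPM, a coefficient of variation of 56.2%. Cnpy4 had 15.7, 52.4 and 48.5 RPM, and Ccdc58 had 27.7, 72.0 and 43.1 RPM. Plxna1, a semaphorin receptor, was high in replicate 3 with 64.8 RPM against 29.9 and 32.6 RPM, and Kifc3, a kinesin, was low in replicate 2 with 20.0 RPM against 53.7 and 52.0 RPM. No library was the odd one in all 5. The median coefficient of variation of the 650 members at this level was 14.2%, and that of 2853 AATAAA sites was 14.8%.

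In the pluripotency network, 13 of 30 listed genes had a member. All 13 were among the 23 genes with at least 50 terminal exon reads. Over all genes at that level, 35.9% had a member. A member led in 5 of the 23 (21.7%, against 15.6% over all genes): L1td1, Klf2, Prdm14, Tdh and Fgf4. Klf2, a Krüppel-like factor of naive pluripotency, ended at a pair of ATTAAA sites 305 bases apart. The proximal site had 619, 615 and 473 RPM and 97.03% ± 0.799 of terminal exon reads, and the distal site had 13.2, 16.4 and 17.2 RPM. The hexamer lay at -24 in the proximal and at -19 in the distal site. Tdh, the threonine dehydrogenase on which mouse ES cells depend, also used a pair of ATTAAA sites, 110 bases apart, but nearly evenly. The proximal site had 435, 458 and 536 RPM (52.6% ± 1.66 of reads) and the distal site 386, 442 and 453 RPM (47.3% ± 1.72). The proximal site was the higher in each library. L1td1, an RNA-binding protein abundant in ES cells, had 484, 458 and 518 RPM at a site with 98.9% ± 0.177 of reads. Fgf4, the growth factor that ES cells secrete, had 144, 111 and 208 RPM and 96.0% ± 0.929. All listed sites of Prdm14 together had 62.9 ± 16.7 RPM, and the level of its member alone is not given here.

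Among cleavage and polyadenylation factors, 10 of 25 listed genes had a member. At 50 reads or more 9 of 23 had one, against 35.9% over all genes. A member led in 1 of the 23 (4.35%, against 15.6% over all genes). That gene was Cpsf4, which encodes a CPSF subunit that contacts the hexamer itself. Its site had 69.4, 110 and 88.7 RPM and 99.7% ± 0.254 of terminal exon reads. Among cell cycle genes, all with at least 50 reads, 8 of 25 had a member, against 35.9% over all genes. A member led in 2 (8%, against 15.6% over all genes), Plk1 and Ccnd3. These lists are small, and their shares were not tested. Plk1, a mitotic kinase, had 311, 298 and 260 RPM at a site 2 bases past the annotated end and 26.1 ± 3.06 RPM at a second ATTAAA site 33 bases upstream, which held 8.31% ± 1.39 of its reads. Ccnd3 was weak, with 5.52 ± 0.800 RPM over all its listed sites.

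The next comparison asked, within genes that carry both kinds of signal, which kind took more reads. It used the ratio of summed RPM at ATTAAA sites to summed RPM at AATAAA sites of the same gene in the same library, on a log2(RPM + 0.05) scale, which understates the ratio of weak sites. It took 1173 genes in which each kind had at least 5% of the reads of both and both together a mean of at least 50 reads. AATAAA sites took more reads in most of these genes, but not in all. ATTAAA sites held a median of 31.7% ± 1.501 of the reads of both, and 39.8% ± 0.140 of the reads summed over the genes. The median log2 ratio was -1.11, -1.19 and -0.998 in replicates 1, 2 and 3. With limma, at a Benjamini-Hochberg adjusted p under 0.05 over 4549 gene and class pairs and at least a 2-fold ratio, 211 genes (18%) were called for ATTAAA, 440 (37.5%) for AATAAA and 522 for neither. Over all classes against AATAAA, 11.1% of 4549 pairs were called for the other class and 49.4% for AATAAA. The ratio had the same direction in 3 of 3 libraries in 962 of the 1173 genes tested. All 651 called genes were among them, but the call itself favours such agreement.

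Other classes lay lower against AATAAA under the same test. For sites with other variants, 210 of 1759 genes (11.9%) were called for the variant and 829 (47.1%) for AATAAA, with a median log2 ratio of -1.78 ± 0.0565. For sites with no listed hexamer the numbers were 82 (5.07%) and 980 (60.6%) of 1617 genes, with a median of -2.46 ± 0.0848. These sets of genes differ and share AATAAA sites, and the difference between classes was not tested. The number of calls varied with the libraries used: with limma 0 genes were called in either direction without replicate 1 (smallest adjusted p 0.0554, 589 genes at an unadjusted p under 0.05) or without replicate 2 (0.0734 and 515 genes), and 88 and 235 without replicate 3. The minimum share also set the counts, with 361 and 912 genes called at 1% and 116 and 217 at 10%.

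**Figure D4:**
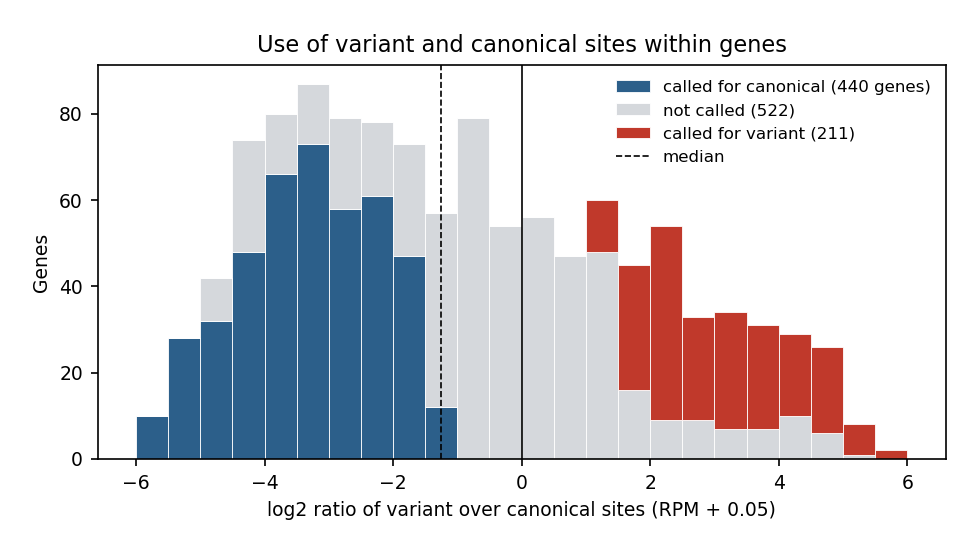
Number of genes (vertical) by the log2 ratio of RPM at ATTAAA sites over RPM at AATAAA sites (horizontal, limma estimate over 3 libraries) in 1173 genes with both. Red marks 211 genes called for ATTAAA, blue 440 called for AATAAA and grey 522 not called. The dashed line is the median of the estimates, -1.25.

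The 8 genes called for ATTAAA with the most reads were Ywhae, Rad23b, Psmb1, Hspa4, Nme1, Srsf3, Jam2 and Arpp19. In all 8 the most-read ATTAAA site lay proximal to the most-read AATAAA site, as it did in 111 of the 211 genes called for ATTAAA and in 674 of the 1173 tested. Ywhae had the closest pair, 33 bases apart. Its ATTAAA sites summed to 687, 756 and 908 RPM and its AATAAA site to 92.5, 141 and 166 RPM in replicates 1, 2 and 3. The log2 ratio was 2.59 (SE 0.36), with a limma adjusted p of 0.0155. In the sequences above, the AATAAA of the distal site lies downstream of the proximal cut, and a further AATAAA is listed upstream of the ATTAAA of the proximal site, outside the window of the rule.

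Psmb1 encodes a core subunit of the proteasome. Its ATTAAA site had 534, 513 and 638 RPM and its AATAAA sites 35.6, 43.9 and 52.9 RPM, 256 bases downstream, with a log2 ratio of 3.68 (SE 0.35, limma adjusted p 0.0147). Nme1, a nucleoside diphosphate kinase, had 371, 392.2 and 384 RPM at the ATTAAA site. Its AATAAA site, 306 bases downstream, had 96.3, 42.5 and 85.7 RPM and was low in replicate 2, and the log2 ratio was 2.44 (SE 0.45, limma adjusted p 0.0211). In the splicing factor gene Srsf3, ATTAAA sites held 80.9% ± 3.34 of the reads of both, and in Hspa4, a chaperone of the heat shock family, 92.5% ± 1.78. The junctional adhesion gene Jam2 was at 92.02% ± 0.722 with sites 3042 bases apart, and Arpp19, a mitotic phosphatase inhibitor, at 76.1% ± 5.27 with sites 3472 bases apart. Rad23b was at 92.05% ± 1.38. Without replicate 1 or replicate 2 no gene passed limma's threshold, and the log2 ratio of Ywhae was then 2.43 and 2.67 and that of Psmb1 3.57 and 3.75. Without replicate 3, where other genes passed, Nme1, Srsf3 and Arpp19 were not called.

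The 8 genes called for AATAAA with the most reads were Rpl22, Rplp0, Rbm8a, Fubp1, Phc1, Serf2, Smarcc1 and Dnajc8. In the first 5 the ATTAAA site was distal, and in the last 3 it was proximal. Rpl22, a large ribosomal subunit gene, had 148, 165 and 155 RPM at its ATTAAA site and 2068, 1931 and 2457 RPM at its AATAAA sites, of which the most-read lay 1577 bases upstream. The ATTAAA share was 6.83% ± 0.970 and the log2 ratio -3.78 (SE 0.36, limma adjusted p 0.0147). Rplp0, which encodes a protein of the ribosomal stalk, had 118, 137 and 117 RPM at ATTAAA sites and 1557, 1392 and 1221 RPM at an AATAAA site 124 bases upstream. Its share was 8.26% ± 1.07.

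Rbm8a, a core protein of the exon junction complex, had a share of 12.5% ± 0.930, and Fubp1, a single-strand DNA and RNA binder, 8.99% ± 0.246. Phc1, a Polycomb subunit, had 58.3, 52.4 and 43.1 RPM at an ATTAAA site with the hexamer at -39, and 290, 262 and 295 RPM at its AATAAA site. Smarcc1, a subunit of the BAF remodelling complex, had a proximal ATTAAA site with a share of 7.68% ± 1.04. Serf2 had a share of 25.7% ± 2.97 and Dnajc8 29.2% ± 3.68, the closest to balance of the 8. Dnajc8 was no longer called with a minimum share of 1%, with no minimum share, or when only the most-read site of each class was used. Without replicate 3, Phc1, Serf2 and Dnajc8 were not called. Without replicate 1 or replicate 2, where no gene passed, the log2 ratio of Rpl22 was -3.77 and -3.90 and that of Fubp1 -3.36 and -3.34.

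Of the listed genes, 4 cleavage and polyadenylation factors entered this test. Averaged over the libraries, all 4 had log2 ratios below 0, where the median over all 1173 genes was -1.25. Cpsf2 (-2.91, limma adjusted p 0.0151), Cpsf6 (-3.01, limma adjusted p 0.0162) and Cstf3 (-2.04, limma adjusted p 0.0199) were called for AATAAA, as were 37.5% of all genes tested, and 18% were called for ATTAAA. Ppp1cb had a log2 ratio of -1.54 with a limma adjusted p of 0.119. Its ratio was -2.52, 0.07 and -2.18 in replicates 1, 2 and 3, so replicate 2 went the other way. Both kinds of site were weak there, with 2.00 ± 1.71 RPM for ATTAAA and 4.84 ± 0.926 RPM for AATAAA. In Cstf3 the ATTAAA site lay in a noncoding exon 55996 bases upstream of the AATAAA site, so that the pair spans separate terminal exons. Nr5a2, an orphan nuclear receptor, was the 1 pluripotency gene tested and was called for AATAAA with a log2 ratio of -3.41 (limma adjusted p 0.0151). Its ATTAAA site was weak, with 2.07, 2.29 and 1.99 RPM in replicates 1, 2 and 3. The ATTAAA share was 13.5%, 8.56% and 5.05%, the last close to the minimum share of 5%. No cell cycle gene entered the test.

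The last comparison asked whether order along the transcript went with use. The most-read ATTAAA site was proximal in 674 genes (57.5%) and distal in 499 (42.5%). In each library ATTAAA sites held a larger share where they came last. With the ATTAAA site distal, its class held a median of 42.0% ± 2.53 of the reads of both, with a median log2 ratio of -0.44 ± 0.152. With the ATTAAA site proximal, the median share was 25.3% ± 1.24 and the median log2 ratio -1.55 ± 0.103. The difference, distal minus proximal, was 1.14, 1.04 and 1.13 in replicates 1, 2 and 3, a mean of 1.10 ± 0.0503. It was positive in 3 of 3 libraries, with an exact two-sided sign-flip permutation p of 0.25, the smallest possible.

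By the limma calls, 100 of 499 genes (20.0%) with a distal ATTAAA site were called for ATTAAA and 152 (30.5%) for AATAAA. With a proximal ATTAAA site these were 111 of 674 (16.5%) and 288 (42.7%). The distance between the sites had a median of 788 bases where the ATTAAA site was distal and 1102 bases where it was proximal. In pairs 2000 bases or more apart, the median log2 ratio was 0.07 ± 0.255 with the ATTAAA site distal (119 genes) and -1.95 ± 0.079 with it proximal (219 genes). That range has no practical upper limit. Pairs in separate terminal exons, as in Cstf3, were not set apart there from pairs in the same exon. Between 500 and 1999 bases it was -0.69 ± 0.051 (185 genes) and -1.37 ± 0.176 (266 genes), and between 100 and 499 bases -0.50 ± 0.147 (146 genes) and -1.24 ± 0.132 (139 genes). Under 50 bases only 19 and 16 genes were left, with medians of 0.04 ± 0.486 and -1.49 ± 0.301. In all 5 distance ranges the distal median was the higher. Without a minimum share the difference was 2.99.

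**Figure D5:**
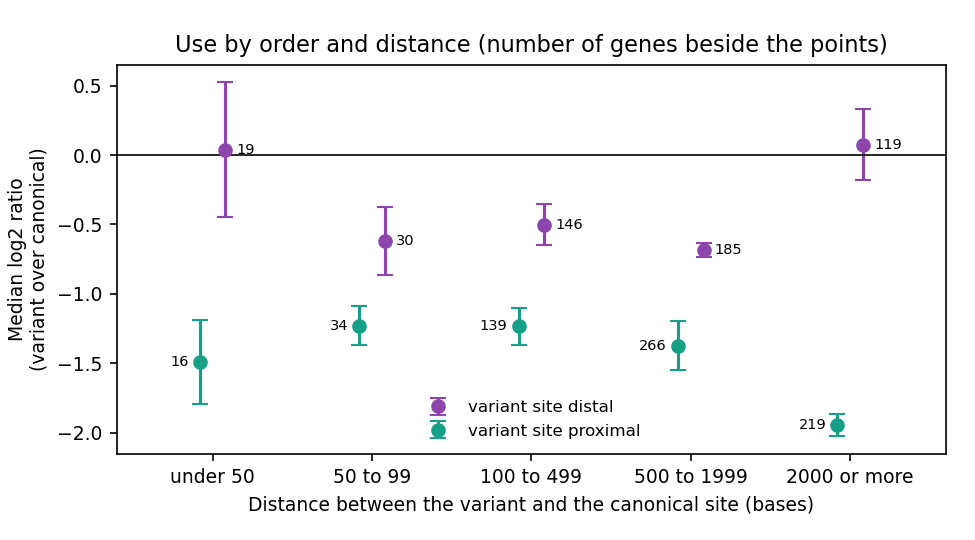
Median log2 ratio of RPM at ATTAAA over AATAAA sites (vertical) by the distance between the most-read site of each kind in bases (horizontal), for genes with the ATTAAA site distal (purple) or proximal (green). Points are means of the 3 library medians, error bars the SD, and the numbers beside them count genes. The purple points lie above the green ones in all 5 distance ranges. The widest range also holds pairs in separate terminal exons, as in Cstf3.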

How the data were processed

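Poly(A) sites of 3 F121-9 libraries were analysed as 1 group. The deposited values are RPM, computed by the authors and recognised from their steps, the files being without header lines. Per the text files deposited with the libraries, the build was mm10 and the annotation GENCODE M21. Neither aligner nor site caller is given in the sources used here. Whole reads were recovered from the RPM steps, with 100% of values whole within 0.01 reads, in libraries of 11085428, 14855484 and 14064461 reads.

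The meaning of the region code TE is not explained in the deposited files, and it was taken as terminal exon. Sites were assigned to GENCODE M21 genes on their strand, and sequence came from the RefSeq GRCm38 genome. Because replicate 3 had no reads on X, the 19 autosomes were used. Ratios within genes were tested with limma 3.58.1 in R 4.3.3 on log2 ratios with a pseudocount of 0.05 RPM, a minimum share of 5% and at least 50 reads, with Benjamini-Hochberg adjustment over all gene and class pairs. The edgeR 4.0.16 quasi-likelihood test on recovered reads was an alternative. A simulation of this comparison held 4549 pairs, and 1 of the 4349 pairs set to be equal was called. Of 100 pairs set 4-fold apart, 38 were called, and among another 100 set 16-fold apart the number was 83. The median SE of the simulated pairs was 0.327, below the 0.518 of the ATTAAA pairs in the data. Most simulated pairs were equal, whereas 11.1% of the pairs in the data were called for the other class and 49.4% for AATAAA. The simulated call rates therefore cannot be read as those of the data.

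Named sites were the 20 with the highest mean, members of at least 10 RPM in 3 gene lists, and the 5 most variable at 30 RPM or more; named pairs were the 8 called in each direction with the most reads. Of the named sites, 1 is not reported here. The members, lists and rules were chosen with earlier results of these data known.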

Additional observations from a re-analysis of the deposited data

Results flagged for a closer look

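X-linked sites were left out of every comparison because replicate 3 had no reads there, and the same signal class was present on X in the other libraries. Of X-linked terminal exon sites, 147 had ATTAAA and no AATAAA, and they held 31384 reads in replicate 1, 49227 reads in replicate 2 and 0 in replicate 3. The first 2 totals lie above the 3 reads that a count of 0 allows. They amount to 2831 and 3314 RPM, and the most-read site lay in Nono, a paraspeckle protein gene, with 352 and 439 RPM. No library of the series serves as a control for these reads.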

How the results depend on the processing

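No result reversed its direction under any alternative run. With a minimum share of 1%, 10% or none, 361, 116 and 438 genes were called for ATTAAA (211 with 5%) and 912, 217 and 1266 for AATAAA (440 with 5%), and the median log2 ratio was -2.36, -0.74 and -3.16 (-1.25 with 5%). A pseudocount of 0.5 RPM gave a median of -1.07. Without 1 replicate the calls ranged from 0 to 88 and from 0 to 235, and the median from -1.22 to -1.12. No gene passed without replicate 1 or without replicate 2, so the 16 named pairs were not called there, and 6 of them were not called without replicate 3. edgeR with the library as a replicate block called 178 and 386 genes, of which 165 and 361 were among those of limma; no pairing across groups was possible because there is 1 group. A variance trend, chosen after seeing the data, gave 228 and 487. The ATTAAA share of terminal exon reads, 13.6%, was 12.2% with the hexamer at -30 to -15, 13.9% with terminal exons by annotation and 14.6% without the Gm42418 site in the denominator. The differences between classes and by order kept their direction, and 3 libraries cannot give an exact p below 0.25. At 50 reads a site with a 5% share rests on few reads, so counting error is large for the weakest sites tested.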
